A study of Arabidopsis thaliana with 24 samples.

Results

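Cell wall loosening genes were followed in roots and rosette leaves of Arabidopsis thaliana plants that had been watered with metal oxide nanoparticles or with the matching control liquid. The genes are expansins, xyloglucan endotransglucosylase/hydrolases (XTH) and glycoside hydrolase family 9 endoglucanases (GH9). A probe set of the Affymetrix ATH1 array was taken when the probe annotation gave it exactly 1 gene and when the symbol of that gene, ignoring case and a leading AT, began with EXP, EXLA, EXLB, XTH, XTR or GH9. This rule found 42 probe sets, each of a different gene, among 22746 probe sets in all. They comprised 15 GH9 genes, 10 alpha-expansins, 9 XTH genes, 4 beta-expansins and 4 expansin-like genes. The RefSeq gene table names 95 genes of these families, so the account covers part of them. Another 4 probe sets, each annotated to a pair of family genes and covering 8 genes in all, were left out because their signal cannot be assigned to either gene.

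The primary wall of a growing plant cell is a network of cellulose microfibrils, xyloglucan and pectin that holds back turgor pressure, and growth needs this network to yield. Expansins loosen the contacts between cellulose and matrix glycans without cutting them and act best in an acidic wall. XTH enzymes cut a xyloglucan chain and join the cut end to another chain or to water, which lets the network be rebuilt while the cell enlarges. GH9 enzymes cut glucan chains of the cellulose kind. In roots these families are known from the elongation zone and from root hairs, and in leaves from expanding blades and petioles.

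All plants were wild-type Col-0 grown in potting medium and were sampled at 29 days. The TiO2 plants received nano-titania at 500 mg/L suspended in KCl, and the KCl plants received the salt solution alone. The CeO2 plants received nano-ceria at 500 mg/L suspended in millipore water, and the water plants received millipore water alone. The liquid was given from above on days 0, 4 and 17, the first pair during germination and the last at the rosette stage. The labels give the KCl as 0.1 mM in the sample descriptions and as 0.1 M in the treatment protocol, and this contradiction could not be resolved here. Each of the 4 treatments was measured in roots and in rosette leaves on 3 arrays called biological replicates, which makes 8 groups and 24 arrays. The labels do not say how many plants went into an array, or whether a root array and a leaf array came from the same plants.

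Values are on the log2 scale after RMA (robust multi-array average) processing by the authors, so a difference of 1 is a doubling of signal, and a fold is computed from the log2 difference. The brightness of a probe set depends on its probes as well as on its RNA, so levels are compared between arrays and not between genes. Array medians lay between 4.96 and 5.15. Pairs of arrays of 1 group correlated at 0.873 to 0.990 over all probe sets. A lower quartile above 3.7, that is a compressed lower end, was found in 4 of 12 root arrays (TiO2 2, KCl 1 and 3, water 1) and in 2 of 12 leaf arrays (CeO2 2, KCl 2). Of 8 measured leaf photosynthesis markers, 8 were lower in roots, and of 5 measured root markers (PYK10, JAL22, JAL33, JAL34, NAI2), 5 were higher there, which matches the tissue labels. No probe set was named for any of the 13 xylem, 5 phloem and 10 floral markers listed.

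Several arrays stood apart from the others of their group for the wall genes. The third CeO2 root array was the lowest of its group for EXLA1, EXLA2, EXLA3, XTH18, XTH19, GH9B8, GH9B13 and XTH32. It was not low throughout: among the 31 members that were not dim in roots it was the lowest for 16 and the highest for 10. The first KCl root array was the lowest of its group for XTH32, GH9B13, GH9B8, EXPA4 and EXPB3, and among the same 31 members the lowest for 15 and the highest for 7. The first water leaf array was the highest of its group for GH9C2, GH9B8 and GH9B13, and among 32 members not dim in leaves the highest for 16 and the lowest for 8. Among the 32 members that were not dim in leaves, the first KCl leaf array was the lowest of its group for 22 and the second, which has the compressed lower end, was the highest for 22. Where a particle or salt difference of a gene is printed and 1 array moved it by over 1.5 times, it is also given without that array.

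A probe set was called dim in a tissue when its mean over the 12 arrays lay below the lower quartile of all such means, 3.7 in roots and 3.61 in leaves. By this measure 11 members were dim in roots, 10 in leaves and 9 in both tissues, which left 30 members above the limit in both. The root hair expansins were at or close to the limit. EXPA7 ranged from 3.04 to 4.07 in roots with a median of 3.58, and from 3.37 to 4.12 in leaves with a median of 3.59. EXPA18 ranged from 3.51 to 4.74 in roots with a median of 3.91, and from 3.57 to 4.05 in leaves with a median of 3.81. XTH26, also known from root hairs, was dim in both tissues. For these genes the arrays give little signal to compare.

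The design first allows a comparison of roots with leaves, separately in particle-treated plants (TiO2 and CeO2 averaged) and in control plants (KCl and water averaged). Of the 42 genes, 10 were higher and 1 was lower in roots of treated plants, and 16 were higher and 2 were lower in roots of control plants. The clearest were the beta-expansin EXPB3, the endoglucanases GH9B13 and GH9B8, the expansin-like gene EXLA3 and XTH20, all higher in roots, and the alpha-expansin EXPA8, lower in roots. Called genes passed limma's moderated test with a Benjamini-Hochberg adjusted p under 0.05 over all 22746 probe sets. In treated plants the 11 called members are 26.2% of the 42, and 29.1% of all probe sets were called (15.5% higher and 13.6% lower). In control plants the 18 called members are 42.9%, against 34.6% of all probe sets (19.2% higher and 15.4% lower). By direction, 23.8% of the members were higher and 2.38% were lower in treated roots, and 38.1% were higher and 4.76% were lower in control roots, so the called members lay mostly on the higher side while the calls over the whole array were more evenly split. The median difference over the 42 genes was 0.30 in treated plants and 0.43 in control plants, beside 0.07 and 0.10 over all probe sets. All 11 genes called in treated plants were also called in control plants, which is 100% of the treated calls and 61.1% of the control calls, and 24 genes were called in neither. Whether the tissue difference itself depended on a particle was tested for each particle as its root effect minus its leaf effect, and 0 of 42 members passed in either. In extracts of whole organs, fewer cells of a type and less RNA per cell cannot be told apart.

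**Figure D1:**
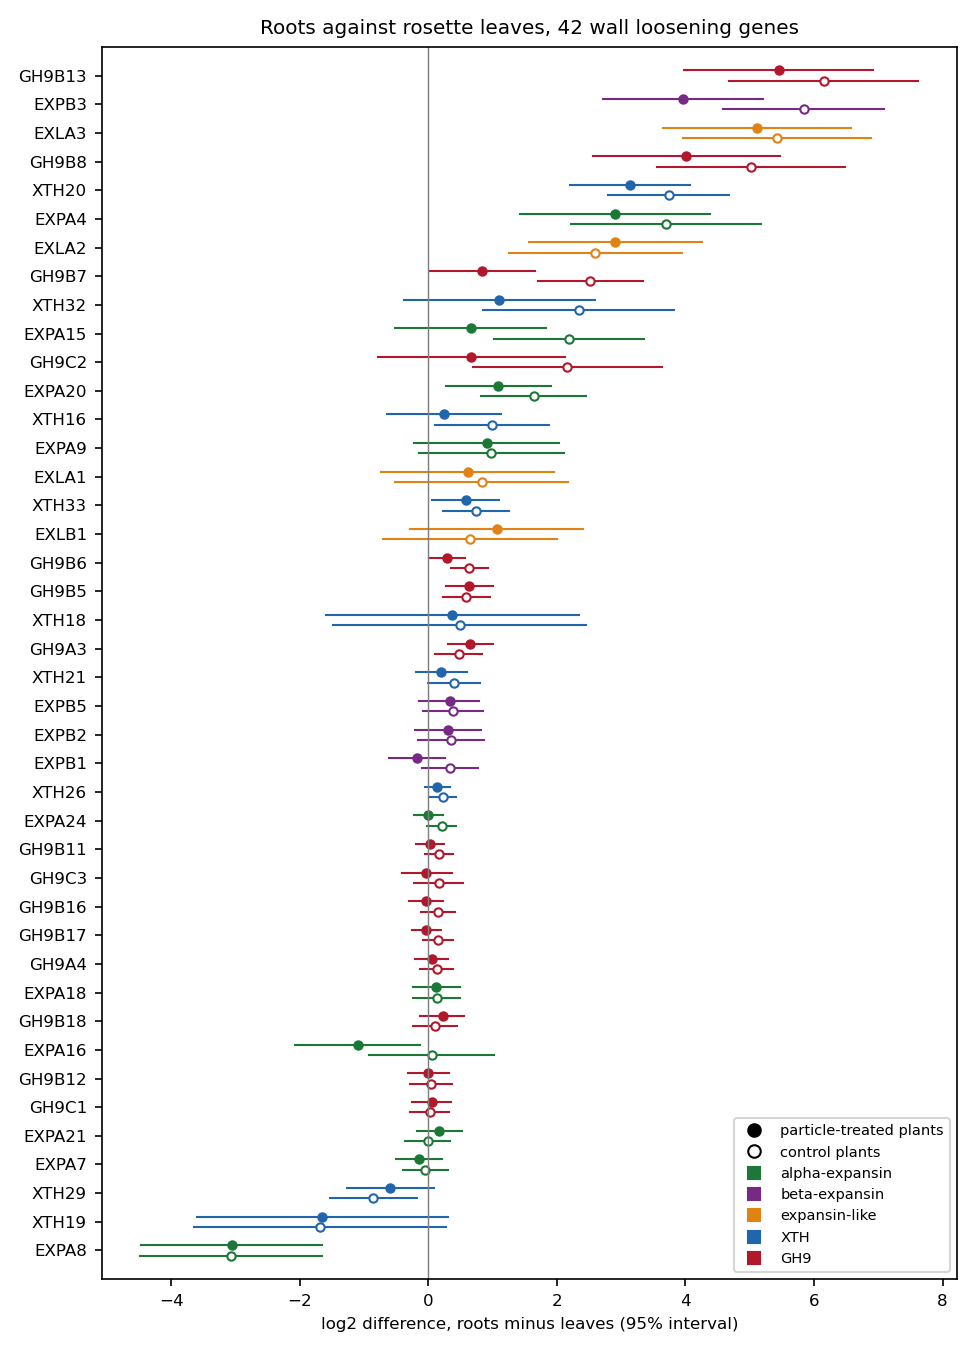
Log2 difference, roots minus leaves, for the 42 wall loosening genes, sorted by the value in control plants. Filled circles are particle-treated plants, open circles are control plants, bars are 95% confidence intervals of the limma fit and colours mark the 5 families. GH9B13, EXPB3, EXLA3, GH9B8 and XTH20 lie farthest to the right and EXPA8 farthest to the left.

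Among the 4 beta-expansins, EXPB3 was the 1 called. It ranged from 7.48 to 11.85 over the 12 root arrays with a median of 10.47, and from 4.07 to 6.65 over the 12 leaf arrays with a median of 4.94. The lowest root array thus lay above the highest leaf array. The difference was 3.96 ± 0.59 in treated plants (SE, adjusted p = 4.23e-05), a 15.5-fold higher signal in roots, and 5.84 ± 0.59 in control plants (adjusted p = 3.65e-07), which is 57.3-fold. The other beta-expansins, EXPB1, EXPB2 and EXPB5, differed by at most 0.38 in absolute size between the tissues in control plants and did not pass. Beta-expansins are best known from grasses, where some act on the walls that pollen tubes cross.

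Alpha-expansins, the classical acid-growth proteins, held genes of either direction. EXPA4 ranged from 8.33 to 12.35 in roots with a median of 10.32, and from 4.76 to 8.84 in leaves with a median of 7.01. It was higher in roots by 2.90 ± 0.70 in treated plants (adjusted p = 0.00367) and by 3.7 ± 0.70 in control plants (adjusted p = 0.0004). The ranges of EXPA4 overlap, because the third CeO2 leaf array and the first KCl root array meet near the middle. EXPA20 was higher in roots by 1.08 ± 0.39 in treated plants (adjusted p = 0.0418) and by 1.64 ± 0.39 in control plants (adjusted p = 0.00266). The treated call of EXPA20 was lost in 13 of 19 alternative fits, with adjusted p up to 0.14. EXPA15 differed by 0.66 in treated plants, which did not pass, and was higher in roots by 2.19 ± 0.56 in control plants (adjusted p = 0.0047). The 2 controls were unlike, with a tissue difference of 3.38 in KCl plants and 1.01 in water plants, beside 0.91 with TiO2 and 0.41 with CeO2.

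EXPA8 was the 1 alpha-expansin called lower in roots. It ranged from 3.29 to 4.97 in roots with a median of 3.73, and from 3.73 to 9.82 in leaves with a median of 6.94. Its leaf values varied strongly within the treated groups, at 4.71, 9.82 and 9.47 in TiO2 leaves and 3.73, 6.02 and 6.79 in CeO2 leaves, against 8.35, 7.09 and 7.65 in KCl leaves and 6.23, 7.16 and 6.53 in water leaves. The first array of each treated group was low, and the control arrays were closer together. EXPA8 was lower in roots by 3.06 ± 0.67 in treated plants (log2 difference -3.06, adjusted p = 0.00171) and by 3.07 ± 0.67 in control plants (log2 difference -3.07, adjusted p = 0.0014). Of the 10 alpha-expansins, 2 were higher and 1 was lower in treated roots, and 3 were higher and 1 was lower in control roots.

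The expansin-like genes share the fold of expansins, and no wall loosening activity is established for them. EXLA3 ranged from 9.54 to 13.29 in roots with a median of 12.09, and from 4.79 to 8.72 in leaves with a median of 5.91, with no overlap. By group it was at 12.70, 11.46 and 11.42 in TiO2 roots, 13.29, 12.61 and 9.54 in CeO2 roots, 11.71, 12.46 and 9.88 in KCl roots and 12.50, 9.67 and 12.65 in water roots. In leaves it was at 6.31, 5.72 and 5.88 with TiO2, 8.72, 8.13 and 5.6 with CeO2, 4.79, 5.64 and 4.88 with KCl and 5.94, 7.22 and 7.88 with water. The root groups each have a low array except TiO2, and the leaf mean is lowest with KCl. EXLA3 was higher in roots by 5.11 ± 0.70 in treated plants (adjusted p = 1.35e-05) and by 5.42 ± 0.70 in control plants (adjusted p = 6.11e-06). EXLA2 was higher in roots by 2.90 ± 0.64 in treated plants (adjusted p = 0.00177) and by 2.60 ± 0.64 in control plants (adjusted p = 0.00366). EXLA1 was bright in either tissue, from 8.18 to 12.45 in roots with a median of 11.19 and from 8.55 to 11.60 in leaves with a median of 10.11, and its tissue difference did not pass. By group it was at 12.08, 10.45 and 11.15 in TiO2 roots, 12.45, 11.64 and 8.18 in CeO2 roots, 11.26, 11.23 and 8.70 in KCl roots and 11.02, 10.91 and 11.27 in water roots. In leaves it was at 10.46, 9.87 and 9.88 with TiO2, 11.60, 10.63 and 9.87 with CeO2, 8.55, 8.82 and 10.34 with KCl and 9.24, 10.96 and 11.52 with water. The third arrays of CeO2 and KCl roots stand below the rest, and root and leaf arrays overlap. EXLA1 and EXLA3 lie next to each other on chromosome 3 in the TAIR10.1 gene order of the RefSeq table. Side by side, the tissue difference of EXLA3 in TiO2, CeO2, KCl and water plants was 5.89, 4.33, 6.25 and 4.59, and that of its neighbour EXLA1 was 1.16, 0.06, 1.15 and 0.50.

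Among the XTH genes, XTH20 was called in either comparison. XTH20 belongs to a small subfamily known mainly from roots, with XTH18 and XTH19. It ranged from 5.84 to 9.17 in roots with a median of 7.57, and from 3.54 to 4.62 in leaves with a median of 4.1, with no overlap. It was higher in roots by 3.14 ± 0.44 in treated plants (adjusted p = 2.08e-05) and by 3.74 ± 0.44 in control plants (adjusted p = 2.45e-06), which is 8.82-fold and 13.3-fold. Its relatives XTH18 and XTH19, adjacent on chromosome 4, did not follow it. XTH18 ranged from 5.74 to 11.30 in roots and from 4.13 to 10.93 in leaves, and XTH19 from 2.98 to 8.18 in roots and from 3.00 to 9.69 in leaves. XTH18 was at 9.48, 7.36 and 9.07 in TiO2 roots, 11.30, 9.59 and 6.10 in CeO2 roots, 9.39, 8.07 and 5.74 in KCl roots and 8.73, 7.58 and 8.37 in water roots. In leaves it was at 9.64, 6.11 and 7.96 with TiO2, 10.93, 9.53 and 6.53 with CeO2, 5.91, 7.57 and 4.13 with KCl and 8.09, 9.39 and 9.85 with water. Arrays of 1 group thus lay up to several doublings apart, and neither XTH18 nor XTH19 passed. XTH32, of an XTH group in which xyloglucan hydrolysis rather than rejoining has been found, differed by 1.1 in treated plants, which did not pass, and was higher in roots of control plants by 2.34 ± 0.71 (adjusted p = 0.0147). By group means its tissue difference was 2.56 for TiO2 and -0.35 for CeO2, beside 2.05 for KCl and 2.62 for water. The CeO2 arrays were spread, at 7.94, 8.47 and 5.08 in roots and 5.57, 7.53 and 9.46 in leaves. The third array was thus the lowest in CeO2 roots and the highest in CeO2 leaves. The root minus leaf effect of CeO2 on XTH32 did not pass in the main fit or in any of 19 alternative fits. XTH33 was higher in control roots by 0.74 ± 0.25 (adjusted p = 0.025) and XTH29 lower by 0.86 ± 0.32 (log2 difference -0.86, adjusted p = 0.0461). The call of XTH29 was lost in 9 of 19 alternative fits, which gave -1.36 to -0.64, and that of XTH33 in 5 of 19.

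GH9 enzymes fall into membrane-anchored (A), secreted (B) and carbohydrate-binding (C) classes. Of the 15 GH9 genes, 4 were higher in treated roots and 7 in control roots, and 0 passed in the other direction. GH9B13 ranged from 6.33 to 12.22 in roots with a median of 11.54, and from 3.98 to 7.18 in leaves with a median of 4.72. The overlap comes from the third CeO2 root array at 6.33, while the other 11 root arrays lay at 8.79 or above. By group GH9B13 was at 11.58, 12.14 and 11.81 in TiO2 roots and 8.79, 11.51 and 10.86 in KCl roots, with CeO2 and water roots given below. In leaves it was at 6.35, 4.48 and 5.09 with TiO2, 3.98, 5.22 and 5.64 with CeO2, 4.67, 4.76 and 4.67 with KCl and 7.18, 4.68 and 4.01 with water. GH9B13 was higher in roots by 5.45 ± 0.70 in treated plants (adjusted p = 7.02e-06) and by 6.15 ± 0.70 in control plants (adjusted p = 1.46e-06). GH9B8 ranged from 4.71 to 11.02 in roots with a median of 9.72, and from 3.24 to 7.01 in leaves with a median of 4.45. Here too the lowest root value was the third CeO2 array, and the highest leaf value was the first water array. GH9B8 was higher in roots by 4.01 ± 0.69 in treated plants (adjusted p = 0.000187) and by 5.02 ± 0.69 in control plants (adjusted p = 1.42e-05).

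The remaining GH9 genes differed less between the tissues. GH9B7 was higher in control roots by 2.52 ± 0.39 (adjusted p = 5.11e-05) and differed by 0.84 in treated plants, which did not pass. Its tissue difference was 3.58 in KCl plants and 1.46 in water plants, beside 1.17 with TiO2 and 0.51 with CeO2. GH9C2 was higher in control roots by 2.16 ± 0.70 (adjusted p = 0.0212), a call lost in 5 of 19 alternative fits, and the first water leaf array at 9.60 lay far above its partners at 5.79 and 4.85. The tissue difference of GH9C2 was 3.18 in KCl plants and 1.15 in water plants, beside 0.09 with TiO2 and 1.26 with CeO2. GH9B5 and the membrane-anchored GH9A3 were higher in roots by 0.63 and 0.65 in treated plants (adjusted p = 0.00907 and 0.00635) and by 0.59 and 0.47 in control plants (adjusted p = 0.0123 and 0.0393). The control call of GH9A3 was lost in 11 of 19 alternative fits, with adjusted p up to 0.103. GH9B6 was higher in control roots by 0.63 (adjusted p = 0.00115), although its probe set was dim in either tissue. The cluster GH9B16, GH9B17 and GH9B18 on chromosome 4 and the neighbours GH9B11 and GH9B12 on chromosome 2 did not pass. Across all families, 10 of 11 treated calls and 14 of 18 control calls held in every alternative fit that was run.

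**Figure D2:**
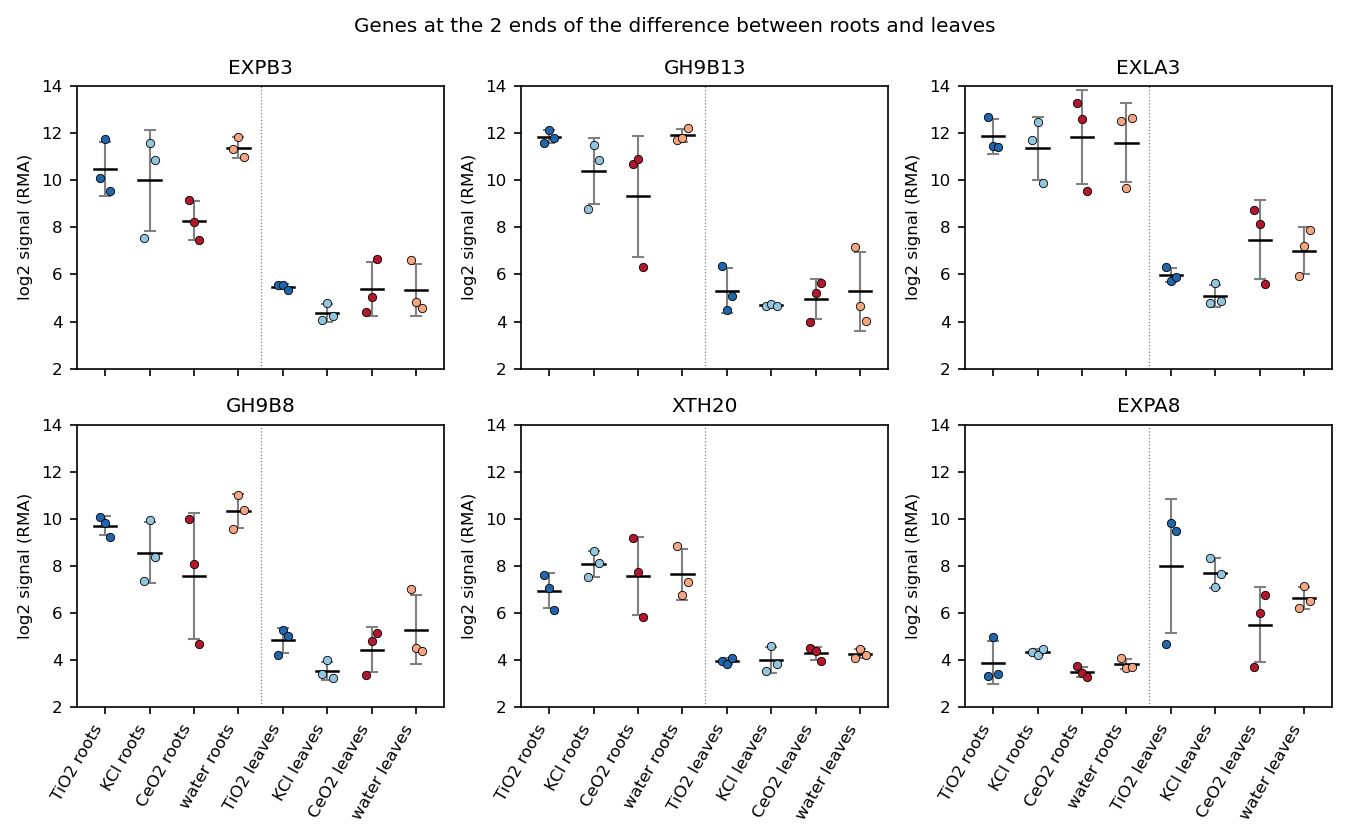
Log2 signal of 6 genes on all 24 arrays, by treatment in roots (left of the dotted line) and in leaves (right). Points are arrays, the black bar is the group mean and the whiskers are 1 SD (n = 3 arrays a group). EXPB3, EXLA3 and XTH20 have no overlap between root and leaf arrays, GH9B13 and GH9B8 overlap through the third CeO2 root array, and EXPA8 is the gene lower in roots.

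Other genes that build or trim the same wall were taken from fixed lists, and few of them have a probe set named in the annotation. Of 13 xyloglucan synthesis genes, 4 were measured, all of them CSLC glucan synthases that make the xyloglucan backbone. In treated roots 1 of the 4 was higher, CSLC6 by 0.85 ± 0.22 (adjusted p = 0.00513), and in control roots all 4 were higher, CSLC04 by 2.05 ± 0.67 and CSLC5 by 1.42 ± 0.36 (adjusted p = 0.0228 and 0.00426). The median of the 4 was 0.68 in treated plants and 1.13 in control plants, beside 0.07 and 0.10 over all probe sets. COB, which guides cellulose deposition and was the 1 measured of 13 cellulose synthase complex genes, differed by 0.86 in treated plants, which did not pass, and was higher in control roots by 1.85 ± 0.46 (adjusted p = 0.00401). EXGT-A3, an XTH family gene under an older symbol that the rule does not take, was lower in roots by 0.90 ± 0.31 in treated plants (log2 difference -0.90, adjusted p = 0.039) and by 1.85 ± 0.31 in control plants (log2 difference -1.85, adjusted p = 0.000133). The expansin family relative AT4G30380 and the growth regulator HAT2, the 1 measured of 20 such genes, did not pass. No probe set was named for the 3 xyloglucan trimming genes, the 11 plasma membrane proton pumps that acidify the wall, or the 15 root hair genes listed.

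The particle and salt comparisons called none of the 42 genes in either tissue. In roots 0 members passed limma's test for TiO2 against KCl (0.347% of all probe sets called), for CeO2 against water (0.0176%) and for KCl against water (0.119%). In leaves 0 members passed for TiO2 against KCl (0.0220%), for CeO2 against water (0%) and for KCl against water (0.189%). Without adjustment, p was under 0.05 for 3, 8 and 3 members in these root comparisons and for 6, 0 and 8 members in these leaf comparisons. The corresponding shares of all probe sets were 12.5%, 6.70% and 11.6% in roots and 15.5%, 2.21% and 12.2% in leaves. In the same order, the members are 7.14%, 19.0% and 7.14% of the 42 in roots and 14.3%, 0% and 19.0% in leaves. The member share was above that of all probe sets for CeO2 against water in roots and KCl against water in leaves, and below it in the other comparisons. The median 95% interval of a member reached 0.75 to either side of its difference in roots and 0.70 in leaves, and the widest reached 2.80 and 2.88, so smaller differences could not be told from 0 for the typical member with 3 arrays a group. With weights estimated for each array, 2 to 15 members were called in 5 of these 6 comparisons, but the weights did not converge and 7292 of 22746 probe sets were then called for TiO2 against KCl in roots.

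**Figure D3:**
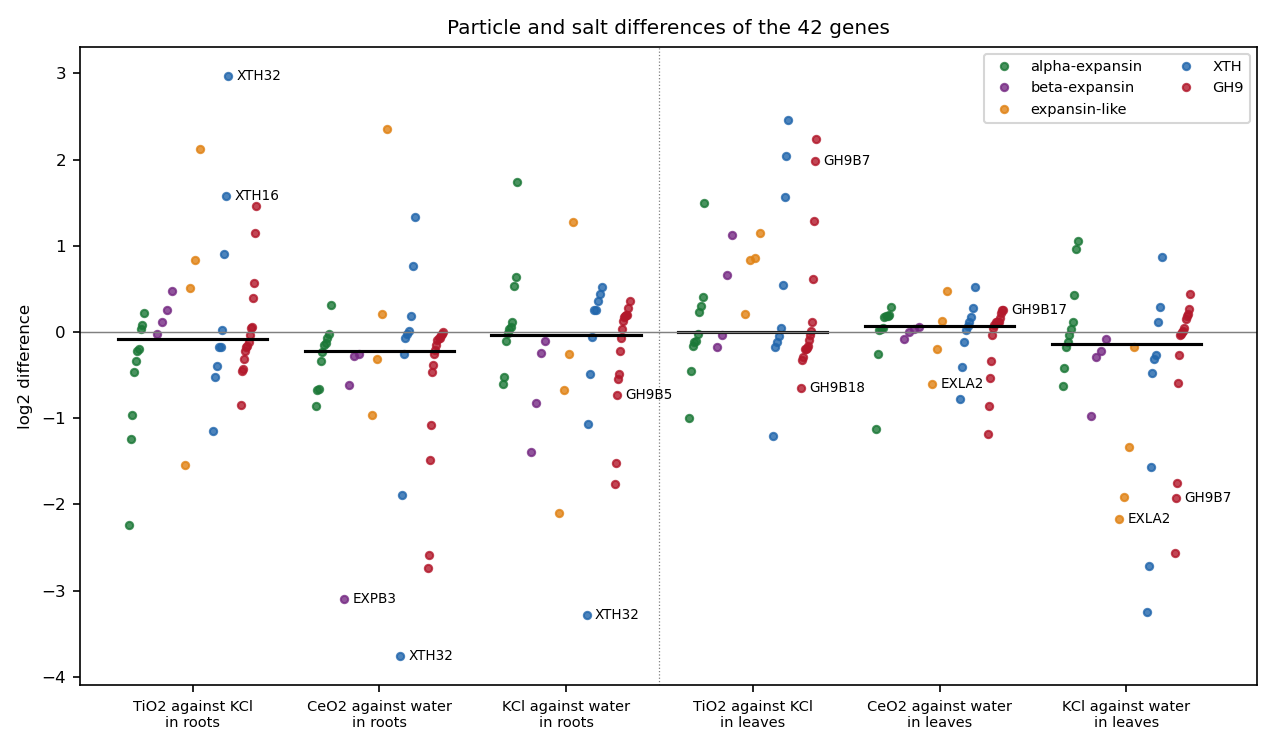
Log2 difference of each of the 42 genes in 6 comparisons, each with the treatment named first minus the one named after it. Points are genes coloured by family, the black line is the median of the 42, and the 2 genes with the smallest p in each comparison are named. No point passed the adjusted threshold, and the points for CeO2 against water in roots lie mostly below 0 with a median of -0.22.

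In roots, TiO2 was set against KCl. XTH32 was at 11.20, 10.25 and 10.36 in TiO2 roots, against 5.91, 8.87 and 8.13 in KCl roots. Every TiO2 array lay above every KCl array, and the first KCl array was the lowest. The difference was 2.97 ± 0.95 (95% interval 0.86 to 5.08, adjusted p = 0.207), and it was 2.11 without the first KCl array. XTH16, a wall enzyme of the same family, was at 6.49, 6.41 and 8.20 in TiO2 roots, against 5.52, 6.32 and 4.53 in KCl roots, a difference of 1.58 ± 0.62 (adjusted p = 0.323). It was 0.99 without the third TiO2 array, the highest of its group. EXPA15 was at 5.42, 8.31 and 6.5 in TiO2 roots, against 7.30, 8.64 and 11.00 in KCl roots, and these values overlap. Its difference was -2.24 ± 0.91 (adjusted p = 0.339), and it was -1.23 without the third KCl array. TiO2 arrays lay wholly above KCl arrays for 4 of 42 members, beside 6.73% of all probe sets, and wholly below for 0, beside 8.53%. The median over the 42 genes was -0.08, and it was 0.02 after repeated quantile normalization and 0.01 after centring, beside -0.06 over all probe sets. The summed level of a marker list is the log2 of its summed linear signals on an array, so bright markers weigh most in it. Of the 8 leaf photosynthesis markers 7 had positive differences in this comparison, with a median of 0.57. Their summed level was from 10.38 to 11.39 in TiO2 roots, against 8.52 to 11.25 in KCl roots. The 5 root markers had 5 negative differences, with a median of -0.87 and a summed level from 11.28 to 12.51 in TiO2 roots, against 11.81 to 13.62 in KCl roots. None of these markers passed, and their part in the wall gene values was not tested.

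CeO2 was set against water in roots. XTH32 was at 7.94, 8.47 and 5.08 in CeO2 roots, against 9.94, 11.69 and 11.13 in water roots. All CeO2 arrays lay below all water arrays. The difference was -3.76 ± 0.95 (95% interval -5.87 to -1.65, adjusted p = 0.354), which is a 13.5-fold lower signal, and it was -2.71 without the third CeO2 array. EXPB3 was at 9.14, 8.24 and 7.48 in CeO2 roots, against 11.33, 11.85 and 10.98 in water roots, again without overlap, a difference of -3.10 ± 0.95 (adjusted p = 0.474). XTH16 was at 5.32, 4.84 and 3.75 in CeO2 roots, against 5.83, 6.74 and 7 in water roots, a difference of -1.89 ± 0.62 (adjusted p = 0.524). For these 3 genes each CeO2 array lay below each water array, and none passed the adjusted threshold.

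The differences for CeO2 in roots leaned to one side. They were negative for 35 of 42 genes and positive for 7, with a median of -0.22 beside -0.04 over all probe sets, and negative for 29 after repeated quantile normalization and 36 after centring. Leaving out 1 array at a time gave 26 to 38 negative genes, with 32 without the third CeO2 array and 26 without the first water array. All 15 GH9 genes were negative, with a median of -0.21. The count was 11 after repeated quantile normalization, 15 after centring and 10 without the first water array. Of these 15 genes, 5 were dim in roots, and some differences were very small. GH9A4 had a mean of 2.93 in both CeO2 and water roots, and GH9B12 had 4.07 against 4.1. All 4 beta-expansins were negative under each scaling, with a median of -0.45 in the main fit. Without the first water array 3 of 4 were negative, with a median of -0.09. The expansin-like genes depended on the third CeO2 array, without which 4 of 4 were positive with a median of 1.16. GH9B13 was at 10.71, 10.90 and 6.33 in CeO2 roots, against 11.70, 11.79 and 12.22 in water roots, with a difference of -2.59 ± 1.08 (adjusted p = 0.702). It was -1.10 without the third CeO2 array. The expansin-like gene EXLB1 ran the other way, at 8.62, 10.02 and 10.31 in CeO2 roots, against 9.12, 4.55 and 8.20 in water roots, and the second water array was far below the others. CeO2 arrays lay wholly below water arrays for 5 of 42 members, beside 7.29% of all probe sets, and wholly above for 0, beside 5.70%. The 8 leaf photosynthesis markers, none of which passed, had 8 positive differences in the same comparison, with a summed level from 10.55 to 12.24 in CeO2 roots, against 9.89 to 11.42 in water roots. The 5 root markers had 5 positive differences, of which 0 passed, from 13.46 to 13.62 in CeO2 roots, against 12.34 to 13.11 in water roots. Their part in the wall gene values was not tested.

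KCl was set against water in roots to see the salt alone. This comparison shares the KCl arrays with TiO2 against KCl and the water arrays with CeO2 against water, so values that recur across them are not independent. XTH32 was at 5.91, 8.87 and 8.13 in KCl roots, against 9.94, 11.69 and 11.13 in water roots, a difference of -3.28 ± 0.95 (adjusted p = 0.181). GH9B5 was at 3.42, 3.82 and 3.85 in KCl roots, against 4.24, 4.47 and 4.57 in water roots, a difference of -0.73 ± 0.27 (adjusted p = 0.304). EXPA16 was at 3.44, 3.46 and 4.03 in KCl roots, against 4.11, 4.26 and 4.35 in water roots, a difference of -0.60 ± 0.24 (adjusted p = 0.350). In each of these 3 genes the KCl arrays lay below the water arrays. Over all root groups the mean of XTH32 was 10.61 ± 0.52 with TiO2, 7.16 ± 1.83 with CeO2, 7.64 ± 1.54 with KCl and 10.92 ± 0.89 with water (SD, n = 3 each). KCl arrays lay wholly above water arrays for 2 of 42 members, beside 8.21% of all probe sets, and wholly below for 5, beside 7.70%.

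The contrast of the 2 particles in roots, TiO2 minus KCl set against CeO2 minus water in a single test over 4 groups, came closest to the threshold for XTH32. It was 6.73 ± 1.34 (95% interval 3.74 to 9.71, adjusted p = 0.0629), with 0.572% of all probe sets called. The adjusted p was 0.0469 when arrays were centred on their medians, 0.0384 when dim probe sets were left out and 0.348 without the arrays of compressed range. The contrast also holds the difference between the 2 control liquids. Group means of XTH32 in roots were 10.61 with TiO2 and 7.16 with CeO2, and 7.64 with KCl and 10.92 with water. XTH16 followed with 3.47 ± 0.88 (adjusted p = 0.132). Members with unadjusted p under 0.05 numbered 7 of 42, which is 16.7%, beside 12.2% of all probe sets.

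In leaves, TiO2 was set against KCl. GH9B7 was at 7.04, 8.01 and 7.67 in TiO2 leaves, against 5.21, 6.14 and 5.43 in KCl leaves. The TiO2 arrays lay above the KCl arrays, with a difference of 1.98 ± 0.44 (95% interval 1 to 2.96, adjusted p = 0.137), a 3.94-fold higher signal. GH9B18, of the chromosome 4 cluster, was at 5.28, 4.83 and 4.70 in TiO2 leaves, against 5.28, 5.72 and 5.74 in KCl leaves, a difference of -0.65 ± 0.19 (adjusted p = 0.190). XTH16 was at 6.81, 4.97 and 5.61 in TiO2 leaves, against 3.86, 4.59 and 4.22 in KCl leaves, a difference of 1.57 ± 0.51 (adjusted p = 0.223). XTH32 was at 7.21, 8.56 and 8.36 in TiO2 leaves, against 4.34, 6.27 and 6.16 in KCl leaves, with a difference of 2.46 ± 0.95 (adjusted p = 0.272). In the other leaf groups XTH32 was at 5.57, 7.53 and 9.46 with CeO2 and 9.57, 7.9 and 7.42 with water. TiO2 arrays lay wholly above KCl arrays for 8 of 42 members, beside 11.1% of all probe sets, and wholly below for 4, beside 14%. Among the wall genes outside the rule, CSLC04 was at 8.47, 8.89 and 8.54 in TiO2 leaves, against 6.03, 7.81 and 5.27 in KCl leaves (2.26 ± 0.51, adjusted p = 0.143), and COB differed by 2.13 (adjusted p = 0.152). The 8 leaf photosynthesis markers had 8 positive differences in this comparison, with a median of 0.68 and a summed level from 15.44 to 16.08 in TiO2 leaves, against 15.15 to 15.53 in KCl leaves. The 5 root markers had 3 positive differences, from 6 to 8.41 in TiO2 leaves, against 6.47 to 8.09 in KCl leaves. None of these markers passed, and their part in the wall gene values was not tested.

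KCl was then set against water in leaves, a comparison that again shares the KCl arrays. EXLA2 was at 4.60, 5.26 and 4.83 in KCl leaves, against 7.29, 7.12 and 6.79 in water leaves. The groups were far apart and each was tight. The difference was -2.17 ± 0.38 (95% interval -3.02 to -1.32), which is a 4.50-fold lower signal. Its adjusted p was 0.0677, beside 0.0485 with dim probe sets left out and 0.0402 with the replicate number as a block. Leaving out 1 array at a time gave an adjusted p from 0.064 to 0.283. EXLA2 stayed uncalled in 10 of 13 alternative fits. GH9B7 was at 5.21, 6.14 and 5.43 in KCl leaves, against 7.79, 7.26 and 7.53 in water leaves, a difference of -1.93 ± 0.44 (adjusted p = 0.112). XTH16 was at 3.86, 4.59 and 4.22 in KCl leaves, against 6.41, 5.86 and 5.10 in water leaves, a difference of -1.57 ± 0.51 (adjusted p = 0.244). All 4 expansin-like genes had negative differences, with a median of -1.62 that was -1.56 after repeated quantile normalization and -1.59 after centring, and between -2.03 and -1.17 with 1 array left out, when 3 or 4 of the 4 were negative. Over all members 27 of 42 differences were negative, and 20 were without the first KCl leaf array. The 8 leaf photosynthesis markers had 8 negative differences in this comparison, with a median of -0.37 and a summed level from 15.15 to 15.53 in KCl leaves, against 15.63 to 15.82 in water leaves. The 5 root markers had 5 positive differences, with a median of 0.56 and a summed level from 6.47 to 8.09 in KCl leaves, against 6.29 to 7.29 in water leaves. None of these markers passed, and their part in the wall gene values was not tested. KCl arrays lay wholly above water arrays for 4 of 42 members, beside 8.86% of all probe sets, and wholly below for 8, beside 8.25%.

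**Figure D4:**
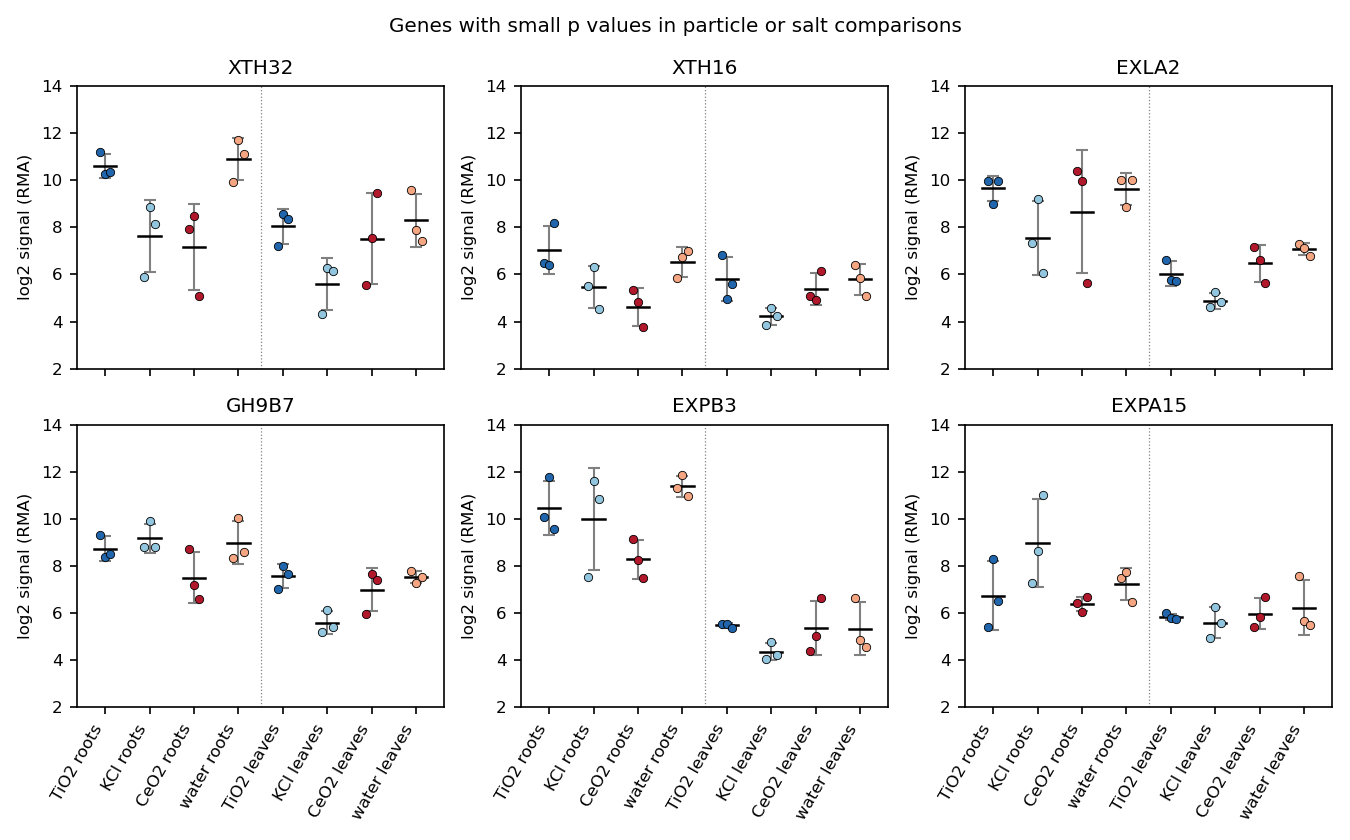
Log2 signal on all 24 arrays of 6 genes that had small unadjusted p in particle or salt comparisons, by treatment in roots (left of the dotted line) and in leaves (right). Points are arrays, the black bar is the group mean and the whiskers are 1 SD (n = 3 arrays a group). XTH32 is lower on KCl and CeO2 root arrays than on TiO2 and water root arrays, and EXLA2 and GH9B7 are lower on KCl leaf arrays than on water leaf arrays, without any of these differences passing the adjusted threshold.

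CeO2 against water in leaves gave the smallest differences, from -1.18 to 0.52, with 0 of 42 members under an unadjusted p of 0.05. GH9B17 was at 3.91, 3.81 and 3.71 in CeO2 leaves, against 3.63, 3.51 and 3.51 in water leaves, a difference of 0.26 ± 0.14 (adjusted p = 1). EXLA2 was at 7.15, 6.62 and 5.63 in CeO2 leaves, against 7.29, 7.12 and 6.79 in water leaves, and the groups overlapped (-0.60 ± 0.38, adjusted p = 1). The difference was -0.18 without the third CeO2 array, and -0.94 without the first. XTH21 was at 3.08, 3.46 and 2.85 in CeO2 leaves, against 2.83, 2.84 and 2.87 in water leaves, and its probe set was dim in either tissue. CeO2 arrays lay wholly above water arrays for 1 of 42 members, beside 2.89% of all probe sets, and wholly below for 0, beside 2.33%. The 8 leaf photosynthesis markers had 8 negative differences here, with a median of -0.52 and a summed level from 14.82 to 15.69 in CeO2 leaves, against 15.63 to 15.82 in water leaves. The 5 root markers had 5 positive differences, with a median of 0.36. None of these markers passed, and their part in the wall gene values was not tested. The contrast of the 2 particles in leaves called 0 members (0.0176% of all probe sets), and 7 had an unadjusted p under 0.05, 16.7% beside 12.4% of all probe sets. GH9B7 came first at 2.5 ± 0.62 (adjusted p = 0.309). Its group means in leaves were 7.57 with TiO2 and 7 with CeO2, and 5.6 with KCl and 7.53 with water. The contrast thus holds a difference between the 2 control liquids as well.

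The root effect of each particle was tested against its leaf effect over all 24 arrays. For TiO2 against KCl, the effect in roots minus that in leaves called 0 of 42 members (0.207% of all probe sets), and 5 had an unadjusted p under 0.05, 11.9% beside 11.2% of all probe sets. GH9B7 came first there at -2.41 ± 0.78 (adjusted p = 0.220), with a group mean of 8.74 in TiO2 roots, against 9.17 in KCl roots, and of 7.57 in TiO2 leaves, against 5.6 in KCl leaves. For CeO2 against water the same difference called 0 members (0.00440% of all probe sets), and 3 had an unadjusted p under 0.05, 7.14% beside 4.91%. EXPB3 came first at -3.12 ± 1.19 (adjusted p = 0.834), with a group mean of 8.29 in CeO2 roots, against 11.38 in water roots, and of 5.37 in CeO2 leaves, against 5.34 in water leaves.

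Across the 12 root arrays some members moved together, given here as a description over arrays that share treatments and array quality. GH9B13 and GH9B8 correlated at 0.92 and each correlated with XTH32, at 0.89 and 0.87. XTH18 correlated with EXLA1 at 0.92 and with its chromosomal neighbour XTH19 at 0.87. Over the 12 leaf arrays the pair GH9B8 and XTH32 correlated at 0.88, whereas XTH18 and XTH19 stood at 0.03. The median over the 465 pairs of members that were not dim in roots was 0.12. The members with the closest likeness include those for which the third CeO2 root array and the first KCl root array were low.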

How the data were processed

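RNA from roots and rosette leaves was measured on 24 ATH1 arrays, 3 in each of 8 groups. The authors deposited RMA log2 values for 22746 probe sets, per the submitters' processing notes. The software version is not given in the sources used here, and the number of arrays limits the precision. Nothing was normalized again for the reported values. Probe sets were named from the platform annotation, in which 13513 of 14016 listed probe sets have a single gene, and gene order came from the RefSeq table of TAIR10.1. No sequence was used here.

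Differences were tested with limma 3.58.1 (R 4.3.3), lmFit and eBayes, two-sided, over all probe sets with Benjamini-Hochberg adjustment at 0.05. The 12 arrays of a tissue were fitted together, and all 24 for comparisons between tissues, which gave 12 comparisons. The fit was tested on simulated data. Figures were drawn with matplotlib 3.10.9. A p-value sets a difference against the spread between arrays within groups. That spread was estimated for each probe set over all groups in the fit and moderated over probe sets. It is not the spread of the compared groups alone.

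Any member could be named, and values on every array are given for the 3 members with the smallest p in each particle or salt comparison and the 3 brightest in each tissue. Members and gene lists were chosen with earlier results of these data known. Alternatives were repeated quantile normalization, centring, leaving out dim probe sets, fitting the compared groups alone, the replicate number as a block, array weights, and leaving out narrow arrays or each array in turn. The labels do not say that a replicate number ties arrays together. Arrays with the same number deviated together in KCl against water in roots alone (correlations 0.18 to 0.37), where the block fit also called 0 members. All sample columns were mapped to samples.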

Additional observations from a re-analysis of the deposited data

How the results depend on the processing

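Differences of single genes were followed under the alternatives for called members and for the 3 members with the smallest p in each comparison. None of these changed sign. Counts over all members show that other differences did. For CeO2 against water in roots, 35 were negative, beside 29 after repeated quantile normalization and 26 without the first water array. Array weights moved the counts of called members most. In roots they gave 15 for TiO2 against KCl, 13 for CeO2 against water, 12 for KCl against water and 14 for the particle contrast. In leaves they gave 8 for TiO2 against KCl, 0 for CeO2 against water, 2 for KCl against water and 3 for the particle contrast. The root minus leaf effects of TiO2 and CeO2 gave 6 and 2. In each of these the unweighted fit gave 0. Roots against leaves gave 20 in treated plants and 24 in control plants, where the unweighted fits gave 11 and 18. The estimate of the weights did not converge, and the top weights of the root groups were 2.6 to 9.58 while the other root weights were 0.29 to 0.77. The cause was not tested. The contrast of the particles in roots called 1 member, XTH32, both after centring and with dim probe sets left out. KCl against water in leaves called 1 member, EXLA2, both with dim probe sets left out and with the replicate block. With the replicate block, roots against leaves called 10 members in treated plants and 17 in control plants. Same-numbered arrays of the other comparisons correlated between -0.45 and 0.16. Different-numbered arrays reached -0.47 and 0.53, so these correlations cannot show whether the numbers mark a pairing. Leaving out 1 array gave 10 to 12 members for roots against leaves in treated plants, 14 to 20 in control plants, and 0 in the other 10 comparisons. Over all probe sets, counts of calls were unstable: TiO2 against KCl in roots called 79, 0 without the narrow arrays and 456 without the second TiO2 root array, and KCl against water in leaves called 43, and 111 without the narrow arrays. After centring, the median over the whole array shifted by -0.12 for KCl against water in roots and by 0.19 for the root minus leaf effect of TiO2. The number of arrays, 3 a group, limits what could pass.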
